A study of Sus scrofa with 18 samples.

Results

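LIF, BSG, SPINT1, EMP2 and CEACAM1 encode secreted or cell surface proteins with known roles at the contact between the uterus and the conceptus. Their probe sets were taken by gene symbol from the annotation of the array (LIF, BSG and SPINT1), and 2 further probe sets were taken under the names that the annotation of the study gives them (EMP2 and CEACAM1), since the platform table used here names no gene for them. This gave 5 genes with 1 probe set each, of 24123 probe sets in the table.

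Endometrium of pregnant Yorkshire and Meishan gilts, mated within their own breed, was compared on gestational days (GD) 15, 26 and 50, with 3 arrays for each of the 6 groups and 18 in all. Yorkshire is the less prolific breed and Meishan the prolific one. GD15 lies within the period of implantation, GD26 at its end and GD50 in the stage of an established placenta. No group was treated and all gilts were pregnant, so no group shows the tissue outside pregnancy. The 3 arrays of a group held RNA of 3 attachment sites, each pooled over its 2 gilts, which were the same for all 3 pools. P-values therefore measure the spread between pools of sites and not between animals.

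The embryo of the pig does not invade the uterine wall, and the trophoblast attaches to the luminal epithelium and stays outside it. LIF (leukemia inhibitory factor) is a cytokine of the interleukin 6 family that signals through the LIF receptor, gp130 and STAT3, and in the mouse uterus it is required for implantation. BSG (basigin, CD147) is a membrane glycoprotein that escorts lactate transporters to the cell surface and induces matrix metalloproteinases. SPINT1 (HAI-1) is a membrane-bound Kunitz inhibitor of serine proteases such as matriptase, and the mouse placenta does not develop without it. EMP2 (epithelial membrane protein 2) is a tetraspan protein that places integrins at the cell surface, with a role in mouse implantation, and CEACAM1 is an adhesion molecule of the immunoglobulin family found on epithelia.

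The 5 genes followed 2 courses. LIF, BSG and SPINT1 were higher in Yorkshire endometrium on GD26 than on GD15 and stood near the GD26 level on GD50, while in Meishan endometrium their changes were smaller. EMP2 and CEACAM1 were lower on GD26 than on GD15 in both breeds and changed no further by GD50 beyond the spread between arrays. Between GD50 and GD26, 0 of the 5 passed the test in either breed, against 13.6% of all 9320 probe sets tested in Yorkshire and 18.4% in Meishan. The 5 genes were chosen with earlier results of these data known, so these counts are not read against those shares. At an unadjusted p under 0.05, 0 of 5 passed in Yorkshire and 1 in Meishan (LIF, adjusted p = 0.154), and the share of all probe sets at that threshold was not counted. Values are deposited log2 intensities made with GCRMA, and rose and fell are written only where the Benjamini-Hochberg adjusted p of limma over those 9320 was under 0.05.

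**Figure D1:**
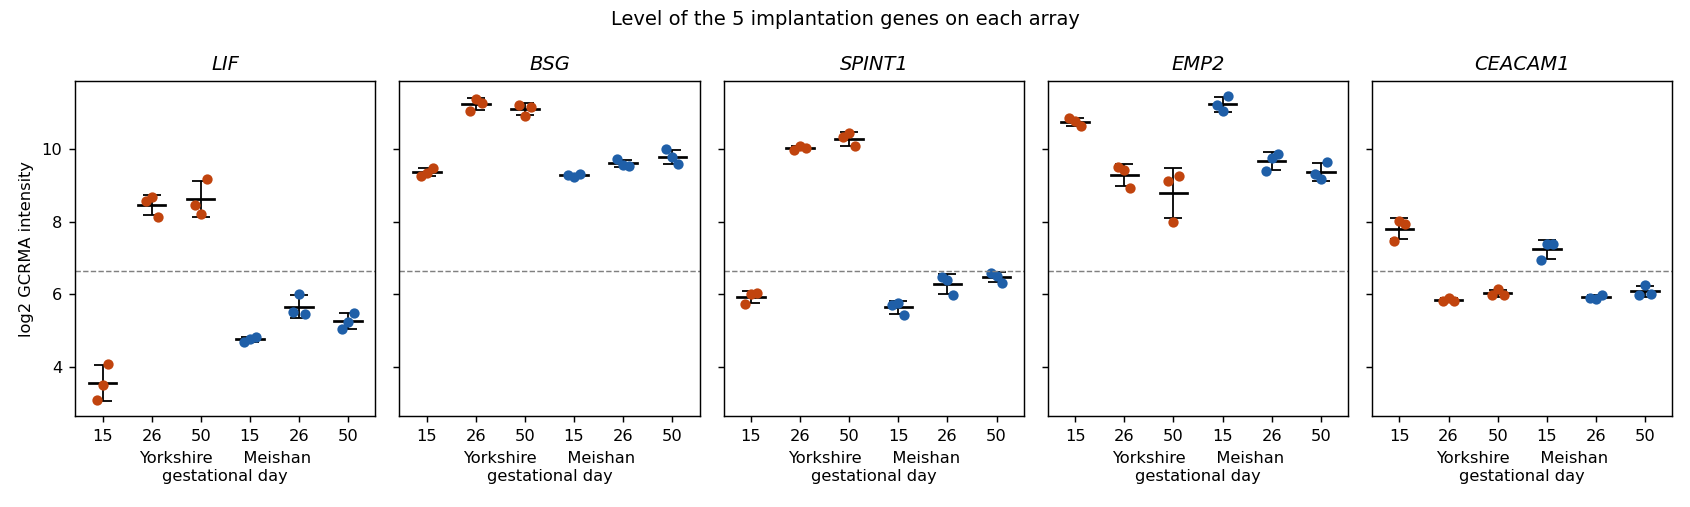
The log2 GCRMA intensity of each gene (vertical axis) is plotted on each of the 18 arrays by gestational day, with Yorkshire in orange and Meishan in blue. Points are arrays, horizontal bars are means with 1 SD (n = 3), and the dashed line is an intensity of 100 (6.64 on the log2 scale). The LIF and SPINT1 points lie above the line on the Yorkshire GD26 and GD50 arrays, and the CEACAM1 points lie above it on the GD15 arrays of both breeds.

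A probe set was tested where its intensity was above 100 on at least 6 of the 18 arrays, the threshold of the study. BSG and EMP2 were above 100 on all 18 arrays. LIF and SPINT1 were above it on 6 arrays each, the Yorkshire GD26 and GD50 arrays, and CEACAM1 also on 6, the GD15 arrays. These 3 genes were therefore tested only because of the groups where they were high, and a count of how many of the 5 passed a test says nothing on its own. In all, 100 probe sets were above 100 on exactly the 6 Yorkshire GD26 and GD50 arrays. If a group had no array above 100, its level was replaced by 100 and the fold is given as at least that value, and if neither group had one, no fold is given.

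LIF had log2 intensities of 3.09, 3.52 and 4.08 in Yorkshire on GD15, of 8.56, 8.68 and 8.14 on GD26, and of 8.45, 8.22 and 9.17 on GD50. In Meishan it had 4.70, 4.76 and 4.84 on GD15, 5.52, 6.03 and 5.46 on GD26, and 5.06, 5.24 and 5.50 on GD50. The 6 Yorkshire arrays of GD26 and GD50 thus lay above all other arrays, and the 3 Yorkshire GD15 arrays lay below all others. In Yorkshire LIF was at least 3.52-fold higher on GD26 than on GD15 (fitted log2 difference 4.90 ± 0.31 (SE), adjusted p = 1.58e-06) and at least 3.92-fold higher on GD50 than on GD15 (adjusted p = 1.23e-06). The GD50 and GD26 arrays overlapped, with a log2 difference of 0.15 ± 0.31 (adjusted p = 0.787). All Meishan arrays were under 100, where the fitted log2 difference between GD26 and GD15 was 0.90 ± 0.18 (adjusted p = 0.00232).

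SPINT1 had log2 intensities of 5.75, 6.02 and 6.04 in Yorkshire on GD15, of 9.97, 10.09 and 10.04 on GD26, and of 10.33, 10.44 and 10.07 on GD50. In Meishan the values were 5.72, 5.78 and 5.44 on GD15, 6.49, 6.40 and 5.99 on GD26, and 6.59, 6.51 and 6.32 on GD50. All Meishan arrays and the Yorkshire GD15 arrays lay under the threshold, and the other Yorkshire arrays lay far above it. SPINT1 was at least 10.5-fold higher on GD26 than on GD15 in Yorkshire (fitted log2 difference 4.10 ± 0.17, adjusted p = 9.32e-08), and GD50 against GD26 gave 0.25 ± 0.17 (adjusted p = 0.363). In Meishan, with both days under 100, the fitted log2 difference between GD26 and GD15 was 0.65 ± 0.17 (adjusted p = 0.0101).

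BSG, which was measured above the threshold in every group, had log2 intensities of 9.26, 9.33 and 9.48 in Yorkshire on GD15, of 11.05, 11.37 and 11.27 on GD26, and of 11.20, 10.91 and 11.16 on GD50. The Meishan values were 9.29, 9.22 and 9.30 on GD15, 9.72, 9.56 and 9.52 on GD26, and 9.99, 9.77 and 9.60 on GD50. The Yorkshire arrays of GD26 and GD50 did not overlap any other group. BSG was 3.66-fold higher on GD26 than on GD15 in Yorkshire (log2 difference 1.87 ± 0.17, adjusted p = 1.24e-05). In Meishan the log2 difference of 0.33 ± 0.14 did not pass (adjusted p = 0.0682), although the arrays of the 2 days did not overlap, and GD50 was 1.43-fold higher than GD15 (0.51 ± 0.14, adjusted p = 0.0106). Both steps of a breed share its GD26 arrays.

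EMP2 had log2 intensities of 10.85, 10.76 and 10.63 in Yorkshire on GD15, of 9.5, 9.41 and 8.94 on GD26, and of 9.11, 8.0 and 9.27 on GD50. In Meishan it had 11.19, 11.04 and 11.45 on GD15, 9.39, 9.76 and 9.87 on GD26, and 9.32, 9.16 and 9.65 on GD50. The GD15 arrays of both breeds lay above every later array, and the second Yorkshire GD50 array was the lowest of all 18. EMP2 was 2.76-fold lower on GD26 than on GD15 in Yorkshire (log2 difference -1.46 ± 0.32, adjusted p = 0.00279) and 2.94-fold lower in Meishan (-1.56 ± 0.19, adjusted p = 0.000109). From GD26 onwards the days overlapped in both breeds, with log2 differences between GD50 and GD26 of -0.49 ± 0.32 in Yorkshire (adjusted p = 0.341) and -0.29 ± 0.19 in Meishan (adjusted p = 0.316).

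CEACAM1 had log2 intensities of 7.47, 8.02 and 7.94 in Yorkshire on GD15, of 5.82, 5.91 and 5.82 on GD26, and of 5.98, 6.14 and 5.98 on GD50. The Meishan values were 6.93, 7.39 and 7.39 on GD15, 5.92, 5.88 and 5.98 on GD26, and 5.98, 6.26 and 6.02 on GD50. All 12 later arrays lay under an intensity of 100, in a narrow band in which 4 arrays had the same deposited value of 5.98. CEACAM1 was at least 2.24-fold lower on GD26 than on GD15 in Yorkshire (fitted log2 difference -1.96 ± 0.18, adjusted p = 1.54e-05) and at least 1.51-fold lower in Meishan (-1.31 ± 0.16, adjusted p = 0.000107). No fold is given between GD50 and GD26, with both days under 100 in both breeds.

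**Figure D2:**
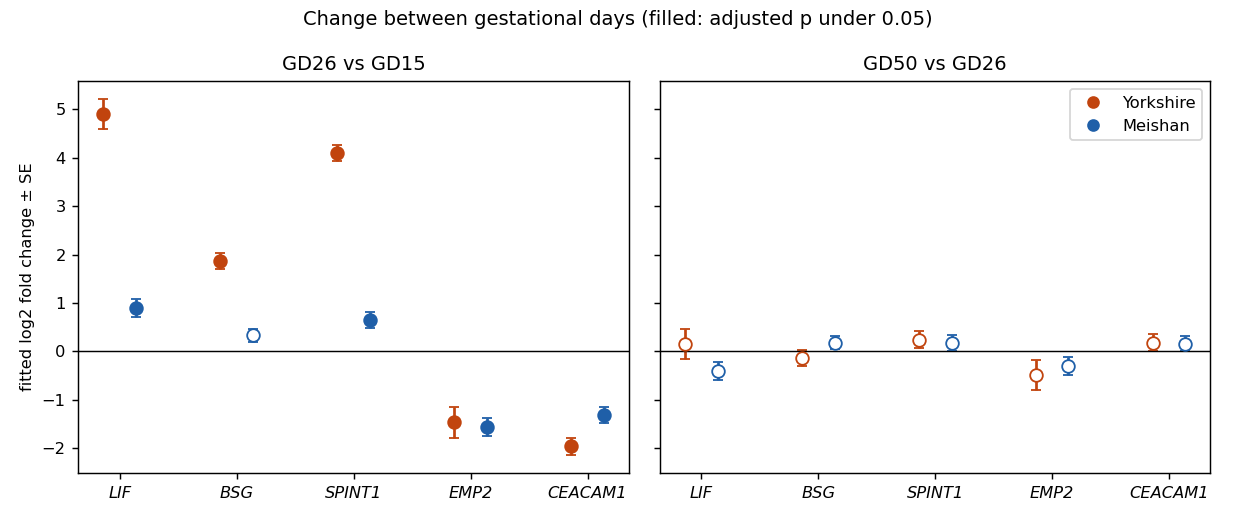
Fitted log2 fold changes with their SE (vertical axis) are plotted for each gene in Yorkshire (orange) and Meishan (blue), for GD26 vs GD15 on the left and GD50 vs GD26 on the right, with filled points where the adjusted p was under 0.05. For GD26 vs GD15 LIF reached 4.90 in Yorkshire and 0.90 in Meishan, EMP2 and CEACAM1 lay below 0 in both breeds, and no point of GD50 vs GD26 was filled. Changes of LIF, SPINT1 and CEACAM1 are fitted values, since at least 1 of the groups compared lay under an intensity of 100.

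Between GD26 and GD15, 5 of 5 genes passed in Yorkshire, where 65.2% of all probe sets did so (20.3% up and 44.9% down), and 4 of 5 in Meishan, where 50.9% did so (23.8% up and 27.1% down). Counts that hold LIF, SPINT1 and CEACAM1 are not read against such shares, since the filter let them in through groups where they were high. In Meishan LIF and SPINT1 were under 100 on both days, and with values under 100 set to 100 their differences were 0 and their calls were lost. Between GD50 and GD15, which is the sum of both steps, 5 of 5 passed in each breed, against 66.5% of all probe sets in Yorkshire and 52.0% in Meishan. The Meishan call of LIF (0.49 ± 0.18, adjusted p = 0.0417, both days under 100) was lost without any 1 of the GD15 arrays or of GD50 arrays 2 and 3 (adjusted p of 0.0526 to 0.143). The median log2 change of all probe sets between GD26 and GD15 was -0.47 in Yorkshire and -0.06 in Meishan, so the rises of LIF, BSG and SPINT1 in Yorkshire ran against the shift of the table, and the falls of EMP2 and CEACAM1 ran with it. Under quantile normalization, median centring or cyclic loess, which moved that Yorkshire median to -0.20, -0.08 and -0.02, the fitted change of BSG in Yorkshire was 2.01, 2.27 and 2.15, and that of EMP2 was -1.30, -1.07 and -1.17. CEACAM1 gave -1.59, -1.56 and -1.12 under the same settings, and all 5 genes kept their direction and their call.

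The question of a breed difference was put to the difference itself, the Yorkshire change minus the Meishan change. Between GD26 and GD15 this differed for 4 of 5 genes, against 35.5% of all probe sets (8.70% up and 26.8% down), with a median over all probe sets of -0.41. The count is not read against that share, since LIF, SPINT1 and CEACAM1 passed the filter only through groups where they were high. LIF gave 4.0 ± 0.38 (adjusted p = 2.27e-06), SPINT1 3.45 ± 0.23 (adjusted p = 5.26e-08) and BSG 1.54 ± 0.20 (adjusted p = 5.34e-05). For LIF and SPINT1 these are fitted values and no bounds, while for BSG all 4 groups were measured above the threshold. The fall of EMP2 gave 0.09 ± 0.38 (adjusted p = 0.870), so a breed difference was not detectable at this precision. CEACAM1 fell further in Yorkshire by 0.65 (difference -0.65 ± 0.23, adjusted p = 0.0389), a call that was lost under quantile normalization (-0.28), median centring (-0.29) and cyclic loess (-0.03). It was lost as well when 1 array was left out, for Meishan GD15 array 1, each Meishan GD26 array, Yorkshire GD15 array 2 or 3 and Yorkshire GD26 array 2 or 3 (adjusted p of 0.0502 to 0.104). Between GD50 and GD26, 0 of 5 changes differed between the breeds in limma, against 4.37% of all probe sets at the same adjusted p under 0.05. At an unadjusted p under 0.05, 0 of 5 did so, and the share of all probe sets at that threshold was not counted. These counts are not read against a share, since the genes were chosen with earlier results of these data known.

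Set side by side on 1 day, the breeds separated for LIF, SPINT1 and BSG after GD15. On GD26, 3 of 5 genes were higher in Yorkshire than in Meishan, against 10.7% of all probe sets that were higher and 53.2% that were different in either direction. BSG was 3.09-fold higher (log2 difference 1.63 ± 0.14, adjusted p = 3.37e-07), LIF at least 3.52-fold (adjusted p = 8.84e-07) and SPINT1 at least 10.5-fold (adjusted p = 1.39e-10). On GD50 the same 3 genes were higher, against 10.9% of all probe sets higher and 56.5% different, with BSG 2.48-fold higher (1.31 ± 0.14, adjusted p = 3.28e-06), LIF at least 3.92-fold and SPINT1 at least 12.4-fold. LIF and SPINT1 passed the filter only through the Yorkshire GD26 and GD50 arrays. BSG was chosen with earlier results of these data known, so none of the 3 genes is read against these shares.

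On GD15, where 9.80% of all probe sets differed between the breeds, BSG differed by 0.09 ± 0.14 on the log2 scale (adjusted p = 0.831) and EMP2 by -0.48 ± 0.27 (adjusted p = 0.342). CEACAM1 was 1.49-fold higher in Yorkshire than in Meishan (0.57 ± 0.16, adjusted p = 0.0345), a call lost without Meishan array 1 (0.42, adjusted p = 0.159), Yorkshire array 2 (0.47, adjusted p = 0.177) or Yorkshire array 3 (0.51, adjusted p = 0.138). LIF had log2 means of 3.56 ± 0.49 in Yorkshire and 4.77 ± 0.07 in Meishan (SD, n = 3 each, adjusted p = 0.00716), all under an intensity of 100, and no direction is read from them, since with values under 100 set to 100 the difference was 0. The log2 difference of EMP2 between Yorkshire and Meishan did not pass on GD26 (-0.39 ± 0.27, adjusted p = 0.235) and on GD50 (-0.58 ± 0.27, adjusted p = 0.0766), where it passed without Yorkshire array 1 (-0.74, adjusted p = 0.0471) or array 3 (-0.82, adjusted p = 0.024).

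In the order of the 6 groups, LIF and SPINT1 were highest in Yorkshire on GD50 and BSG in Yorkshire on GD26, and for each of the 3 genes the arrays of these 2 groups overlapped. The 6 arrays lay above all other 12 for LIF, BSG and SPINT1, a pattern held by 397 of 9320 probe sets (4.26%). For LIF and SPINT1 the filter fixed that pattern, since it was passed through exactly these arrays. BSG was chosen with earlier results of these data known, so none of the 3 genes is read against that share. EMP2 was highest in Meishan on GD15 and next in Yorkshire on GD15, without overlap, and from Meishan on GD26 down to Yorkshire on GD50 neighbouring groups overlapped. CEACAM1 was highest in Yorkshire on GD15, followed by Meishan on GD15 without overlap, and its 4 later groups overlapped in order. For EMP2 and CEACAM1 the 6 arrays of GD15 lay above all 12 later arrays, as they did for 1675 of 9320 probe sets (18%). For CEACAM1 the filter fixed this, since no later array was above 100. EMP2 was also chosen with earlier results of these data known, so neither gene is read against that share.

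The Yorkshire GD26 and GD50 arrays stood apart in their technical readings as well. The hybridization controls, which are bacterial and phage transcripts added before hybridization, had a mean log2 intensity of 11.4 to 13.5 on those 6 arrays and of 9.68 to 11.1 on the other 12. The median log2 intensity of the probe sets tested was 7.78 to 8.13 on the 6 arrays and 8.31 to 8.40 on the other 12, and 7131 to 8036 probe sets were above an intensity of 100 there, against 8373 to 8743. Breed and day and these readings cannot be told apart for the 6 arrays, and their part in the results was not tested. Yorkshire GD26 was also represented by its first array alone, which had the lowest controls of the 6, though at 11.45 they were still above the 11.14 of the highest of the other 12. The spread in that fit comes from the other groups, and the single array is assumed to vary like them. The fitted change from GD15 was then 5.0 for LIF (adjusted p = 0.000225), 1.69 for BSG (adjusted p = 0.000803) and 4.04 for SPINT1 (adjusted p = 3.49e-05). CEACAM1 gave -1.99 (adjusted p = 0.000914), and EMP2 gave -1.25 (adjusted p = 0.0579).

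**Figure D3:**
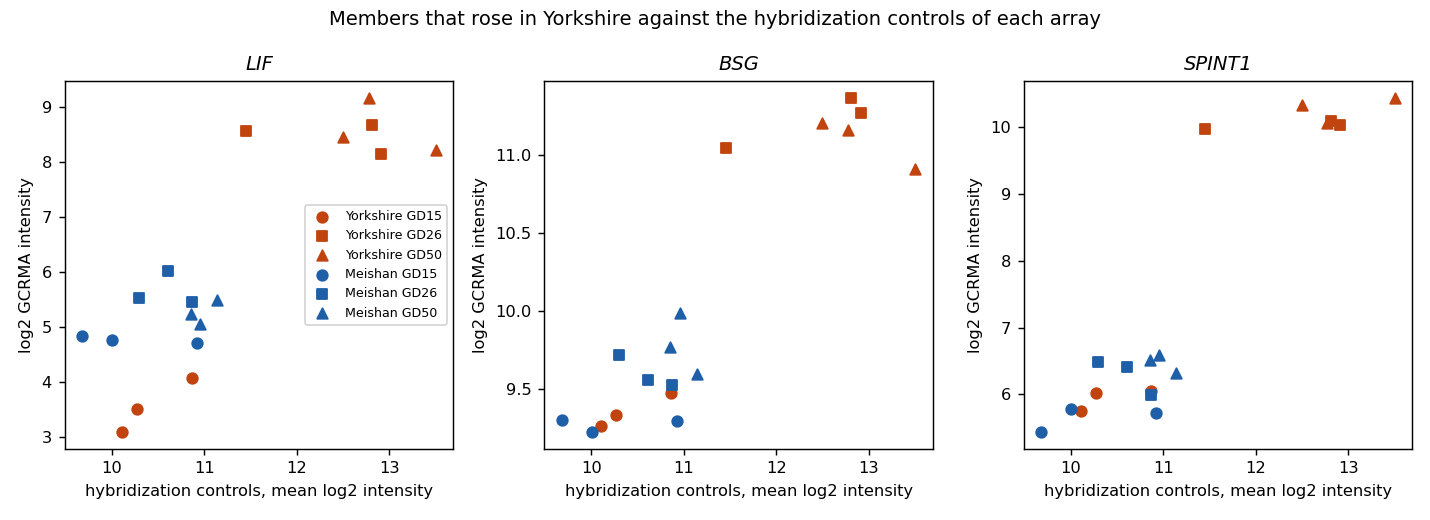
The log2 GCRMA intensity of LIF, BSG and SPINT1 (vertical axes) is plotted against the mean log2 intensity of the hybridization controls (horizontal axis) for each of the 18 arrays, with Yorkshire in orange, Meishan in blue and a symbol for each day. The 6 Yorkshire GD26 and GD50 arrays lie at control values of 11.4 to 13.5 and above all others in each gene, and the first Yorkshire GD26 array, at 11.45, has log2 intensities of 8.56 for LIF, 11.05 for BSG and 9.97 for SPINT1.

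The samples are whole endometrium at attachment sites, in which fewer cells of a type and less RNA per cell cannot be told apart. The summed log2 level of the 9 epithelial markers past the threshold (of 10 listed) was 14.6 to 15.2 on every array, a sum set by the brightest of them. Between GD26 and GD15, 6 of the 9 fell and 1 rose in Yorkshire, with a median log2 change of -0.90. Over all probe sets 44.9% fell and 20.3% rose there, with a median of -0.47. In Meishan 3 fell and 2 rose, with a median of -0.25, against 27.1% down, 23.8% up and -0.06 over all probe sets. MUC1, a mucin of the epithelial surface, was under an intensity of 100 on all Yorkshire GD26 and GD50 arrays. Of 6 smooth muscle markers, 3 passed the threshold, and all 3 rose between GD26 and GD15 in each breed. Of 14 trophoblast markers, 6 passed the threshold, and 5 of these rose between GD26 and GD15 in each breed. Their summed log2 level was 16.2 to 16.4 in Yorkshire and 15.3 to 16.2 in Meishan on GD26, against 8.20 to 8.47 in Yorkshire and 8.40 to 8.74 in Meishan on GD15. On GD50 it was 15.51 to 16.01 in Yorkshire and 16.12 to 16.44 in Meishan. The GD15 sum was set by GATA2, the 1 marker of the 6 that did not rise in either breed. The other 5 markers were under an intensity of 100 on all GD15 arrays. The part of conceptus tissue, epithelium or smooth muscle in the changes of the 5 genes was not tested. Of 10 leukocyte markers only CD163, a macrophage scavenger receptor, passed the threshold.

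Of 26 genes of LIF signalling, 8 could be tested, and the LIF receptor subunits LIFR and IL6ST (gp130) were not analysed here. In Yorkshire 1 of the 8 rose and 5 fell between GD26 and GD15, against 20.3% up and 44.9% down over all probe sets, with a median log2 change of -0.83 against -0.47. In Meishan 2 rose and 5 fell, against 23.8% up and 27.1% down, with a median of -0.69 against -0.06. The related cytokine IL6 was under 100 on every GD15 array and was at least 3.29-fold higher on GD26 in Yorkshire (adjusted p = 1.99e-07) and at least 6.21-fold in Meishan (adjusted p = 7.51e-08). STAT3, the transcription factor activated by gp130, fell by 1.39 in Yorkshire (adjusted p = 0.000439) and by 1.22 in Meishan (adjusted p = 9.26e-05) on the log2 scale. IL11RA, the receptor of interleukin 11, was at least 9.79-fold lower in Yorkshire and fell by 3.43 on the log2 scale in Meishan, where its GD26 mean was 6.86 ± 0.27. MSX1, a homeobox factor of the receptive uterus in the mouse, fell by 0.67 in Yorkshire and by 2.10 in Meishan, a difference between the breeds of 1.43 ± 0.26 (adjusted p = 0.000808), and its Yorkshire call was lost under the 3 other normalizations (log2 changes of -0.41, -0.28 and -0.22), without the second Yorkshire GD15 array (-0.63, adjusted p = 0.0597) and without Yorkshire GD26 array 3 (-0.59, adjusted p = 0.0569).

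Of 22 genes around BSG, 9 could be tested, and the lactate transporters SLC16A1 and SLC16A3 were not among them. In Yorkshire 3 of the 9 rose and 3 fell between GD26 and GD15 (all probe sets 20.3% up and 44.9% down), with a median of -0.19 against -0.47. In Meishan 3 rose and 4 fell (all probe sets 23.8% up and 27.1% down), with a median of -0.49 against -0.06. LDHA, a subunit of lactate dehydrogenase, rose by 1.42 ± 0.18 in Yorkshire (adjusted p = 0.000109) and by 2.02 ± 0.14 in Meishan (adjusted p = 4.04e-06). PPIA (cyclophilin A), a ligand of basigin, rose by 0.39 in Yorkshire and by 0.60 in Meishan, and its Yorkshire call was lost without any 1 of the GD15 arrays, GD26 arrays 2 and 3 or GD50 array 3 (adjusted p of 0.0513 to 0.122). ITGB1, an integrin subunit bound by basigin, rose by 0.66 in Yorkshire and by 0.88 in Meishan, with the Yorkshire call lost without the second GD15 array (0.60, adjusted p = 0.0579). NPTN fell in Yorkshire, from a log2 mean of 10.80 ± 0.08 (SD) on GD15 to 9.68 ± 0.48 on GD26. In Meishan it had 10.90 ± 0.36 on GD15 and 10.41 ± 0.04 on GD26, which did not pass. The Meishan change passed under quantile normalization (-0.49, adjusted p = 0.0487) and cyclic loess (-0.50, adjusted p = 0.0472). The basigin-like escort EMB (embigin) also ran the other way from BSG in Yorkshire. EMB fell by 3.05 ± 0.49 in Yorkshire (adjusted p = 0.000505) and by 0.88 ± 0.23 in Meishan (adjusted p = 0.0102), with a difference of -2.17 (adjusted p = 0.00977), and on GD50 all Yorkshire arrays were under 100. With the first Yorkshire GD26 array alone, and the spread taken from the other groups, the fitted difference of EMB was -1.26. The fitted Yorkshire changes between GD26 and GD15 were then -0.58 for NPTN and 0.29 for PPIA.

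Of 16 genes around SPINT1, 7 could be tested. In Yorkshire 4 of the 7 rose and 1 fell between GD26 and GD15, with a median of 0.41, where all probe sets had 20.3% up, 44.9% down and a median of -0.47. In Meishan 3 rose and 0 fell, with a median of 0.45, where all probe sets had 23.8% up, 27.1% down and a median of -0.06. PRSS8 (prostasin), a membrane serine protease that SPINT1 inhibits, had log2 means of 9.89 ± 0.33 on GD26 and 6.47 ± 0.06 on GD15 in Yorkshire, where it was at least 9.48-fold higher (adjusted p = 1.44e-06). In Meishan it had 7.10 ± 0.17 on GD26 and 6.53 ± 0.29 on GD15 (adjusted p = 0.051), which passed under the 3 other normalizations (0.0307 to 0.0388) and without the second GD15 array (0.0278) or the first (0.0453) or second (0.0296) GD50 array. The changes differed by 2.86 ± 0.31 (adjusted p = 1.05e-05), in the same direction as for SPINT1. ST14 (matriptase), a further membrane protease that SPINT1 inhibits, rose by 0.86 ± 0.22 in Yorkshire and by 1.12 ± 0.17 in Meishan, and the urokinase gene PLAU rose by 1.76 in Yorkshire and by 2.10 in Meishan. The related inhibitor SPINT2 gave -0.28 in Yorkshire (adjusted p = 0.159) and 0.09 in Meishan (adjusted p = 0.632). EPCAM, an epithelial adhesion molecule cleaved by matriptase, fell by 0.65 in Yorkshire (adjusted p = 0.00666), a call lost under median centring (-0.25), and gave 0.01 in Meishan. E-cadherin (CDH1) gave 0.25 in Yorkshire (adjusted p = 0.224) and rose by 0.33 in Meishan (adjusted p = 0.0359), where 6 of the 9 leave-one-out fits lost the call (adjusted p of 0.0523 to 0.117), and under median centring it rose in Yorkshire too (0.64, adjusted p = 0.00709). With the first Yorkshire GD26 array alone, the fitted Yorkshire changes were 0.51 for ST14, 1.25 for PLAU and -0.49 for EPCAM.

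**Figure D4:**
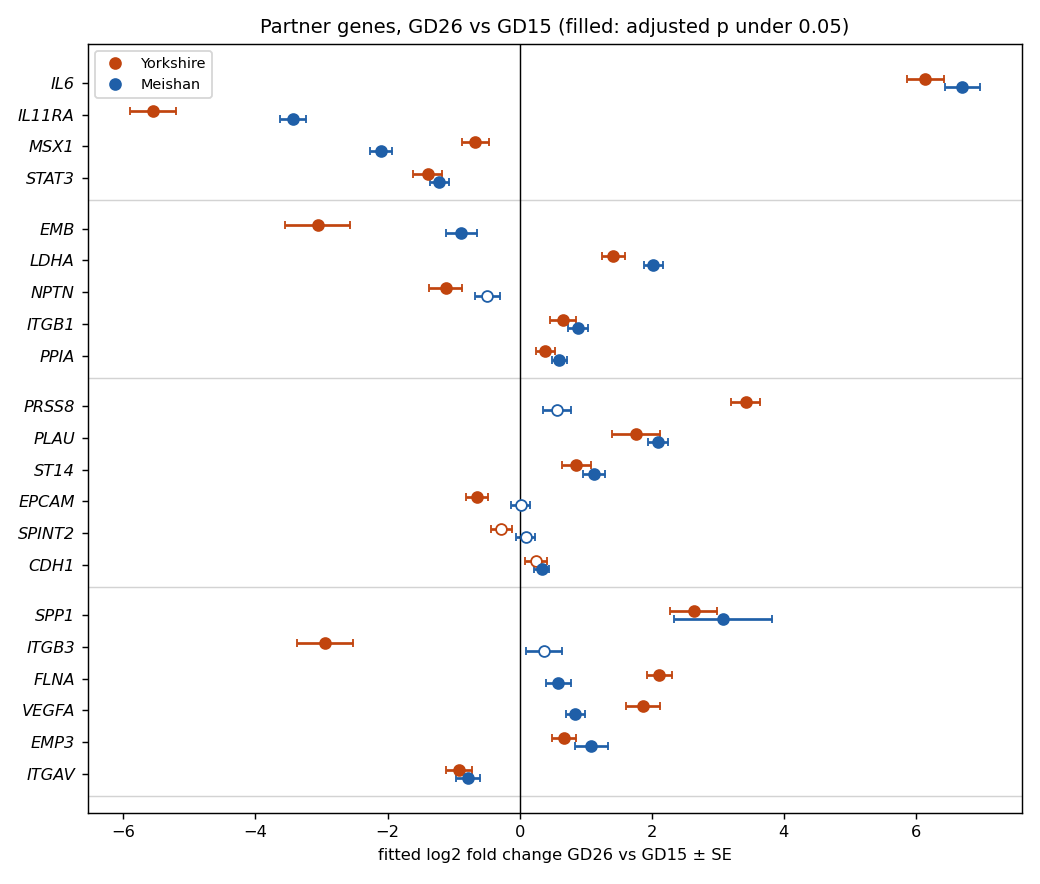
Fitted log2 fold changes of GD26 vs GD15 with their SE (horizontal axis) are plotted for the partner genes named in the text (vertical axis), grouped from the top by LIF, BSG, SPINT1 and EMP2 with CEACAM1, with Yorkshire (orange) above Meishan (blue) and filled points where the adjusted p was under 0.05. PRSS8 and ITGB3 are open in Meishan and filled in Yorkshire, on opposite sides of 0, while IL6 and SPP1 are filled on the right in both breeds. Changes against a group under an intensity of 100 are fitted values.

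Of 26 adhesion genes around EMP2 and CEACAM1, 11 could be tested, and the related EMP1 and PMP22 were not among them. Between GD26 and GD15, 6 of the 11 rose and 2 fell in Yorkshire, with a median of 0.57, against 20.3% up, 44.9% down and -0.47 over all probe sets. In Meishan 6 rose and 1 fell, with a median of 0.39, against 23.8% up, 27.1% down and -0.06 over all probe sets. EMP3, of the same protein family, rose by 0.67 ± 0.18 in Yorkshire (adjusted p = 0.00894) and by 1.09 ± 0.25 in Meishan (adjusted p = 0.00482), against the fall of EMP2. With the first Yorkshire GD26 array alone, the fitted Yorkshire change of EMP3 was 0.51. SPP1 (osteopontin), an integrin ligand of the attachment site, rose by 2.64 in Yorkshire and by 3.07 in Meishan. Its Meishan GD15 arrays were widely spread (log2 mean 12.25 ± 1.98, SD), and the Meishan call was lost with no filter (adjusted p = 0.054). The integrin subunit ITGAV fell by 0.92 in Yorkshire and by 0.78 in Meishan. Between GD50 and GD26 ITGAV then rose by 1.01 in Yorkshire and by 0.89 in Meishan. ITGB3, the partner subunit of ITGAV, was at least 2.36-fold lower on GD26 than on GD15 in Yorkshire (adjusted p = 0.000265), with GD15 at 7.88 ± 0.18 and all GD26 arrays under 100. In Meishan ITGB3 was under 100 on all GD15 arrays and above it on 1 GD26 array (adjusted p = 0.291), and between GD50 and GD26 it rose by 3.26 ± 0.28 (adjusted p = 8.01e-05). FLNA, a filamin that binds the tail of CEACAM1, rose by 2.11 in Yorkshire and by 0.58 in Meishan (difference 1.53 ± 0.27, adjusted p = 0.000653), with the Meishan call lost without GD15 array 3 or GD26 array 1 or 2 (adjusted p of 0.0537 to 0.0815). VEGFA, a vascular growth factor, rose by 1.87 in Yorkshire and by 0.84 in Meishan (difference 1.03, adjusted p = 0.0136).

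The probe sets with 1 gene symbol that ran most like each gene over the 18 arrays are given as a description, since the points share the 6 groups and the arrays that stood apart. For LIF these were APOD (Pearson's r of 0.98), SLCO1A2 (0.97) and MPP7 (0.97). BSG ran most like ZKSCAN5, SPINT1 and HM13 (0.98 each), and SPINT1 ran most like ZKSCAN5, RHOB and TFRC (0.99 each). For EMP2 they were ANXA4, NFIB and STMN1 (0.96 each), and for CEACAM1 they were PPP2R5A (0.97), CBR2 (0.97) and DIRAS3 (0.96).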

How the data were processed

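RNA of endometrium was measured on 18 Affymetrix porcine arrays. The deposited values used here are log2 intensities per probe set, from 2.18 to 16.05, which the authors obtained by GCRMA, a background correction that draws on probe sequence followed by normalization and summarization. The submitters' processing notes name RMA and GCRMA without versions. Raw scans were not used, so the steps before the log2 values are those of the authors throughout. No reference build is given in the sources used here, so no coordinates are printed.

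The 124 control probe sets were left out, and the 9320 probe sets with an intensity above 100 on at least 6 of 18 arrays were fitted with limma 3.58.1 in R 4.3.3 (lmFit, then eBayes), with a separate fit for the 9 arrays of each breed. Breed differences, at 1 day or in the change between days, came from 1 fit over all 6 groups, as Yorkshire minus Meishan. P-values were Benjamini-Hochberg adjusted over the 9320 probe sets and called under 0.05. No minimum fold change was set. The correlation between arrays of a group was 0.948 to 0.991, and 2 arrays shared at most 0.987% equal values. The number of arrays, 3 a group, limits the precision.

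Gene symbols came from the platform annotation, with 1 symbol for 10099 probe sets, several for 198 and none for 13826. Partner lists were counted by the brightest probe set of a gene, and named were up to 4 called genes of a list with the largest change in GD26 vs GD15 plus a set of direct partners. Some of these genes have further named probe sets, such as CDH1, MSX1, EMB and SPINT2 (2 in all for each) and VEGFA (4 in all). The values of those further probe sets are not given. The 5 genes, the lists and this rule were chosen with earlier results of these data known. The fits were tested on simulated data. Alternatives were no filter, stricter and looser filters, a floor of 100, other normalizations, a mean-variance trend, Bonferroni, 1 fit for both breeds, a block for the replicate number and leaving out each array. The use of 1 Yorkshire GD26 array alone was added after seeing the data. Plots were made in matplotlib 3.10.9 under Python 3.11.15.

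Replicate numbers are shared by the labels across groups. Of 18 same-numbered pairs of groups within a breed, the deviations from the group means correlated at -0.136 to 0.328, and 7 were over 0.1. Meishan GD50 and GD26 was a comparison in which all 3 pairs were over 0.1, and there the block left the count of the 5 genes called at 0.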

Additional observations from a re-analysis of the deposited data

Results flagged for a closer look

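Genes are given here because their change between GD26 and GD15 differed between Yorkshire and Meishan by a test of the difference itself (Yorkshire change minus Meishan change, limma over 18 arrays, adjusted p under 0.05, on the log2 scale). The difference was above 0 for LIF (4.0), SPINT1 (3.45), PRSS8 (2.86), BSG (1.54), FLNA (1.53), MSX1 (1.43) and VEGFA (1.03). It was below 0 for ITGB3 (-3.32), EMB (-2.17), IL11RA (-2.12), EPCAM (-0.66), CEACAM1 (-0.65) and LDHA (-0.60). Over all 9320 probe sets the median difference was -0.41, and 35.5% passed the same test. Values of genes with a group under an intensity of 100 are fitted values and not bounds. The call of LDHA was lost under each other normalization (log2 differences of -0.52, -0.25 and -0.40) and in 11 of 18 fits that left out 1 array, and that of CEACAM1 in 8 of 18. That of EPCAM was lost under median centring (-0.31, adjusted p = 0.21) and cyclic loess (-0.54, adjusted p = 0.0626).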

How the results depend on the processing

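The count of the 5 genes called kept within 1.5 times its value under all alternatives in 8 of the 11 comparisons. In Meishan GD26 vs GD15 it was 0 with Bonferroni, against 4. In Meishan GD50 vs GD15 it was 3 with values under 100 set to 100 and 1 with Bonferroni, against 5. In Yorkshire vs Meishan on GD15 it was 1 with an intensity above 200, with values under 100 set to 100 and with a mean-variance trend, and 0 with Bonferroni, against 2. The higher threshold leaves out CEACAM1, the floor sets values under 100 equal and Bonferroni adjusts more strictly, all by construction, and for the trend the cause was not tested. With 1 array left out, it ranged from 1 to 2 on GD15 between the breeds. CEACAM1 turned round between the breeds under cyclic loess, to 0.56 on GD26 (adjusted p = 0.0168) and 0.61 on GD50 (adjusted p = 0.00989), with all those arrays under an intensity of 100 as deposited, and the cause was not tested. The breed difference of IL11RA became 0.14 with values under 100 set to 100 (adjusted p = 0.666), where the Yorkshire GD26 arrays lie at the floor by construction. BSG in Meishan GD26 vs GD15 passed with all probe sets fitted before the filter (adjusted p = 0.0348) and with the floor of 100 (adjusted p = 0.0363). Over all tests of the 5 genes and alternatives, 1333 values kept their direction and side of the threshold, 45 lost the call, 4 gained it and 2 turned round. With the replicate number as a block, the counts of the 5 genes called were the same in every comparison, with 5 in Yorkshire GD26 vs GD15, 4 in Meishan GD26 vs GD15 and 4 for the breed difference. Signal under 100 limits LIF and SPINT1 in Meishan and in Yorkshire on GD15, and CEACAM1 after GD15, to bounds.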
